A study of Mus musculus with 6 samples.

Results

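The gene catalogue sets apart 2 classes of poorly characterised transcripts, and both were read here in cultured or sorted mouse muscle stem cells. TEC transcripts are loci with evidence of transcription that still await an experimental check. Sense-intronic transcripts are non-coding RNAs that lie in an intron of another gene and on its strand. Transcripts were chosen by their level: rows of either class with a value of at least 10 in at least 2 of the 6 libraries were kept, and each was read beside any listed protein-coding gene whose interval contained it, called its host below. The rule kept 286 transcripts, 251 TEC and 35 sense-intronic, of 340 rows of these classes and of 14515 genes in all.

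The comparison took 6 libraries in 3 groups of 2, labelled wt, mdx and mdx/Ripk3mKO. The mdx mouse lacks full-length dystrophin, as in Duchenne muscular dystrophy, and Ripk3 encodes a kinase of necroptotic cell death. What mKO stands for, the promoter behind it and the animals' age are not in the labels. The sample labels describe quiescent satellite cells that were sorted and processed at once, 10000 to 20000 cells a library, whereas the text on the series has wild-type cells in an activated state, taken after 72 hours below a transwell that held cells of the 3 genotypes, so the groups are named by their labels alone. No source ties the 2 libraries of a group to different animals or cultures, so a p-value here weighs a difference against the spread among these 6 libraries, possibly a technical one. The 2 mdx columns carry the same header, and their numbers 1 and 2 are names only.

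A gene is first copied whole, introns included, and splicing then removes the introns, most of which are degraded in the nucleus. A library of total RNA, as here, holds unspliced and non-polyadenylated RNA beside mature mRNA. A read inside an intron can therefore come from the host's precursor, from an intron that was kept, or from a transcript with a start of its own, and a count cannot tell these apart.

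Values are read counts that had been scaled between libraries and rounded, called scaled counts below. They summed to between 20611974 and 21037153 a library. Before scaling the mdx/Ripk3mKO libraries were the deepest: the step in each column's whole numbers gives a divisor of 1.2 and 1.206 for them, against 0.87 to 0.954 for the other 4. In bulk libraries, fewer cells with a transcript and less of it per cell cannot be told apart. Satellite cell, myoblast and dividing cell markers were at 1410 to 1500, 11900 to 15200 and 1500 to 1790 CPM (scaled counts per 1000000 of the library's sum) in sum, with Myog, a gene of myoblasts that leave the cell cycle, at 1300 to 1700 and Mki67, a gene of dividing cells, at 660 to 820. Macrophage, endothelial and fibro-adipogenic marker sums did not pass 4.09 CPM in any library, and none of the 5 erythroid markers was listed. Pericyte and smooth muscle markers, 3 of 5 listed, were not low: they summed to 1770 to 2490 CPM. Ripk3, at 45 and 32 (wt), 23 and 36 (mdx) and 17 and 33 (mdx/Ripk3mKO), overlapped between the groups and did not check the labels. Dmd, at 324 and 432, 531 and 692, and 474 and 294, was highest in the mdx libraries; the mdx allele is a point mutation, which a gene's count need not show. One library stood apart: mdx/Ripk3mKO library 1 held Xist, which coats the inactive X chromosome, at 6918 scaled counts against 164 to 666 in the other 5, and was at 373 for the Y-linked gene Ddx3y against 1543 to 1785. The medians and many of the transcripts described for mdx/Ripk3mKO are therefore also given without it.

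The transcripts were low, and most were annotated with a single exon. Their mean scaled count over the 6 libraries had a median of 18.25 and ran from 6.667 to 1922, with 128 transcripts at 20 or more and 21 at 100 or more. Of the 284 that matched the GENCODE M21 annotation, 270 had 1 exon in that annotation, and the median length was 2330 bases. At the lower edge, 18 kept rows had 10 as their second highest value and 15 rows just outside had 9. Gm37314, in Ppp2r3a, was the kept row of lowest mean at that edge, at 8 and 11 (wt), 3 and 10 (mdx) and 2 and 6 (mdx/Ripk3mKO), and Gm42648, at 9 and 8, 7 and 16, and 4 and 5, was the highest row left out.

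Most of them lay inside a protein-coding gene. A host was found for 182 transcripts, in 160 genes, and 135 of these, 105 TEC and 30 sense-intronic, were wholly intronic on the host's strand. A further 11 shared the host's strand and touched an exon of it, and 36 lay on the opposite strand. Of the 104 with no host, 27 began within 5000 bases past the end of a gene on the same strand, 27 overlapped a protein-coding gene in part, and 50 lay elsewhere. Most hosts held 1 transcript, 9 held 2 and 5 held 3 or more. Kansl1l, a relative of a subunit of a histone acetyltransferase complex, held 6, the highest number, and Picalm, which encodes a clathrin assembly protein, held 3.

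The ends of the annotated transcripts differed with position. The letters AATAAA or ATTAAA, the common forms of the signal that directs cleavage and polyadenylation of an RNA, were looked for on the transcript's strand in its last 40 bases. They were present in 111 of 284 transcripts, or 39.1%, against 5.63% in the first 40 bases of the same transcripts. Over the whole annotation 27.5% of TEC and 26.6% of sense-intronic transcripts held them in the last 40 bases. The share was 25.9% of the wholly intronic same-strand transcripts, 63.9% of those on the opposite strand and 68.0% of those just past the end of a gene. The last 60 bases of 4 transcripts with the signal, in capitals, and of 4 without are shown because the values below are given for both kinds (GENCODE M21 transcripts, build mm10, 5′ to 3′). The 4 with the signal are among the 12 of highest mean. The 4 without had the smallest p of mdx/Ripk3mKO against mdx in the limma fit below. Since they were chosen differently, these examples do not compare transcripts with and without the signal. Peg13 holds overlapping copies. Those with the signal are Gm44250 (chr6:5216258-5216317, minus strand), Gm43682 (chr5:93179000-93179059, plus), Peg13 (chr15:72805600-72805659, minus) and B930095G15Rik (chr14:121253912-121253971, plus). Those without are AC160637.1 (chr9:59676641-59676700, plus), Gm45867 (chr7:81876461-81876520, plus), A930004J17Rik (chr4:131883178-131883237, plus) and Gm44769 (chr6:71793417-71793476, plus).
Gm44250: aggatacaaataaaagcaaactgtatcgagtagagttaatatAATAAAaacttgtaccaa
Gm43682: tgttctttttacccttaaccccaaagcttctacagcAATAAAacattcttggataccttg
Peg13: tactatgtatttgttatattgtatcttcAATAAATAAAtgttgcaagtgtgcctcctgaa
B930095G15Rik: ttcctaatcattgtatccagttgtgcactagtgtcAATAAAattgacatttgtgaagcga
AC160637.1: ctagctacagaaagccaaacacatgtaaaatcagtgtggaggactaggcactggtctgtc
Gm45867: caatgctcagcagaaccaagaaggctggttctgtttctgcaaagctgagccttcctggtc
A930004J17Rik: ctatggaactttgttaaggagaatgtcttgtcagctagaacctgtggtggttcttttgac
Gm44769: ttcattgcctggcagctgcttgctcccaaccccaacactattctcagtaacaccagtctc

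Per length, the transcripts were well below their hosts. The log2 ratio of transcript to host, each per kilobase of exon and as a mean of 6 libraries, had a median of -4.41 over 182 pairs, or 4.69% of the host's level, with quartiles of -5.54 and -2.9. It was -4.58 for the wholly intronic same-strand transcripts and -4.16 for those on the opposite strand. Only 3 of 182 transcripts were above their host. They were Gm37206 and Gm44669, described next, and Gm20485, named after its values were seen, a sense-intronic transcript in the collagen gene Col26a1 at 13 and 11 (wt), 15 and 19 (mdx) and 24 and 22 (mdx/Ripk3mKO). It was highest in mdx/Ripk3mKO (0.89 ± 0.34 from wt, SE; limma adjusted p = 1), and stood at 221% of its host's level per kilobase. The lowest ratios among transcripts with a mean of at least 20 lay in strongly expressed genes: Gm42929 was at 0.323% of Cnn3, which encodes an actin-binding calponin, and Gm43375 at 0.371% of Anp32e, a histone chaperone gene. Gm36936 was at 0.697% of Nedd4, a ubiquitin ligase gene, and 4632404M16Rik at 1.09% of Casq2, which encodes a calcium-binding protein of the muscle calcium store.

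Among transcripts with a mean of at least 20, the 4 highest ratios were on the opposite strand to the host. Gm37206 lay wholly within annotated exons of Rbm4b, which encodes an RNA-binding protein, and was at 545% of its level per kilobase. The annotated exon length of Rbm4b, 9979 bases, exceeds its listed interval (chr19:4756571-4765940). That ratio therefore rests on a gene model that differs from the listed one. Gm44669 in Ttc23 was at 104%, AC153949.1 in Mcm9, a helicase gene, at 79.2%, and Gm36401 in Lcorl at 70.5%. The sources used here give no strand setting for the counting, so reads of such a transcript and of its host may be mixed. Some intronic transcripts on the host's strand were also close to their hosts in level: A930004J17Rik was at 54.7% of Srsf4, which encodes a splicing factor, and Peg13, an imprinted non-coding RNA gene, at 54.9% of Trappc9.

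**Figure D1:**
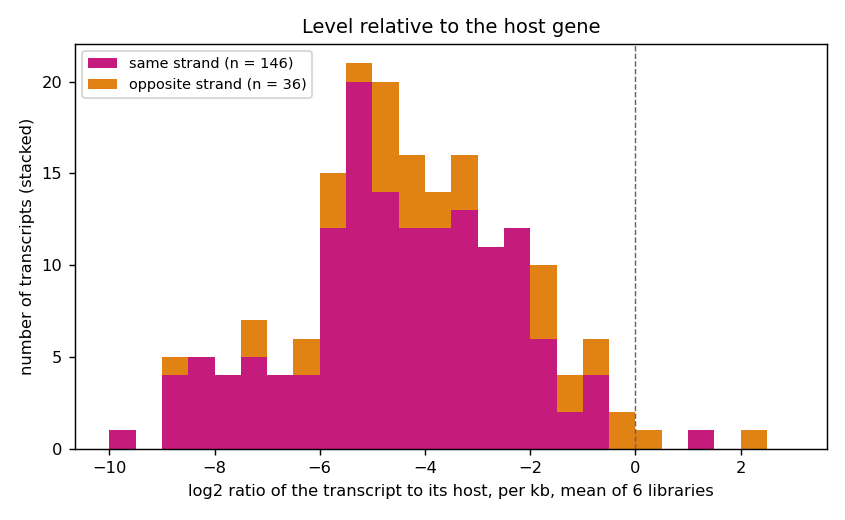
Number of transcripts, stacked by strand, at each log2 ratio of the transcript to its host per kilobase of exon, averaged over 6 libraries; the dashed line marks equal levels. Of 182 transcripts, 3 lie to the right of it, and the median is -4.41.

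The mdx and wt libraries were close in these transcripts. The median log2 difference of mdx from wt was 0.05, with 121 lower and 164 higher, beside a median of 0.00 over all 14077 genes tested. None of the 286 passed an adjusted p of 0.05 in limma; over all genes tested 0.0% passed as lower and 0.0071% as higher. At an unadjusted p under 0.05, 5 were lower and 5 higher in mdx, where 3.02% and 3.44% of all tested genes were. The smallest unadjusted p belonged to the sense-intronic Gm15903 in Nipsnap2, a gene of a mitochondrial protein, at 21 and 20 (wt), 5 and 13 (mdx) and 12 and 8 (mdx/Ripk3mKO). Its groups of wt and mdx did not overlap, and the log2 difference was -1.23 ± 0.46 (SE; limma adjusted p = 0.663); it was -0.62 without mdx library 1 and -1.84 without mdx library 2. Gm43413 in Tmem120b was at 27 and 25 in wt and 14 and 12 in mdx (-0.95 ± 0.37, limma adjusted p = 0.668). Gm43737, on the opposite strand to Mtx1, a gene of mitochondrial protein import, was at 129 and 114 against 92 and 89. 2510016D11Rik, in an intron of Tpcn1, a gene of a channel of endosomes and lysosomes, was at 57 and 65 against 39 and 45. All 4, chosen by their smallest p, were higher in both wt libraries than in either mdx library. Both mdx libraries were below both of wt for 9.79% of the 286 and above for 18.5%. The shares over all tested genes were 18.3% and 17.6%. The hosts of the 4 differed from wt by 0.06 or less in either direction on the log2 scale.

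In the mdx/Ripk3mKO libraries the transcripts were lower as a group while the median of their hosts was near 0. Against mdx the median log2 difference was -0.32, with 218 of 286 lower and 67 higher, and 2 passed an adjusted p of 0.05 in limma, both lower; over all genes tested 0.121% passed as lower and 0.0852% as higher. At an unadjusted p under 0.05, 54 were lower and 0 higher, beside 5.87% and 5.77% of all tested genes. Both mdx/Ripk3mKO libraries were below both mdx libraries for 123 transcripts, 43.0% of them, and above for 5.24%, where the shares over all tested genes were 20.3% and 21.0%. The 160 hosts had a median of -0.01, and none of them passed; without mdx/Ripk3mKO library 1 their median was -0.02, and 8 hosts and 3 transcripts passed, among 278 genes. The same threshold on level was applied to all genes tested.

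Against wt the same libraries gave a similar picture; both comparisons share the mdx/Ripk3mKO libraries, so the second is no separate evidence. The median was -0.29, with 217 lower and 68 higher and no transcript past an adjusted p of 0.05 in limma, as for all genes tested (0.0% in either direction). At an unadjusted p under 0.05, 38 were lower and 2 higher, where 2.09% and 1.24% of all tested genes were. Both libraries were below both wt libraries for 38.1% of the transcripts and above for 4.9%, beside 15.1% and 14.4% of all tested genes. The hosts' median was 0.00.

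The level rule itself leans on which group is high. A value of 10 was reached in all 3 groups by 228 of 286 transcripts, was not reached in either mdx/Ripk3mKO library by 43, and was not reached in mdx by 9 and in wt by 11. Over all 340 rows of any level the median of mdx/Ripk3mKO against mdx was -0.36, with 259 lower. For the 128 transcripts with a mean of at least 20 it was -0.22, with 101 lower and 67, or 52.3%, below in both libraries.

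The transcripts' summed scaled counts were 11814 and 12490 (wt), 12230 and 12556 (mdx) and 9334 and 10252 (mdx/Ripk3mKO). Both mdx/Ripk3mKO sums were below the other 4, and library 1, the one that stood apart in Xist, was the lower. It held the lowest value of 130 transcripts and library 2 that of 59, ties included. Without library 1 the median against mdx was -0.21 and against wt -0.20; without library 2 it was -0.41 and -0.38. The hosts' sums were 503731 and 505442, 516438 and 504027, and 518926 and 499804, with no separation of the groups.

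The size of the difference varied with position, given here as description with no test between positions. Against mdx the wholly intronic same-strand transcripts had a median of -0.48, with 117 of 135 lower and 53.3% below in both libraries, and the 11 that touched the host's exons one of -0.44, with 11 lower. Transcripts on the opposite strand stood at -0.17, those just past the end of a gene at -0.03, those in part over a gene at 0.01 and those elsewhere at -0.19. Against wt the order began likewise, at -0.39 for the intronic and -0.28 for those touching exons, then -0.27, -0.11, -0.04 and -0.19. Summed scaled counts of the 135 intronic transcripts were 4075 and 4328 (wt), 4323 and 4499 (mdx) and 2842 and 3416 (mdx/Ripk3mKO), again with both of the last below all others. Against mdx, leaving out mdx/Ripk3mKO library 1 gave a median of -0.32 and leaving out library 2 one of -0.60; against wt these were -0.23 and -0.58.

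**Figure D2:**
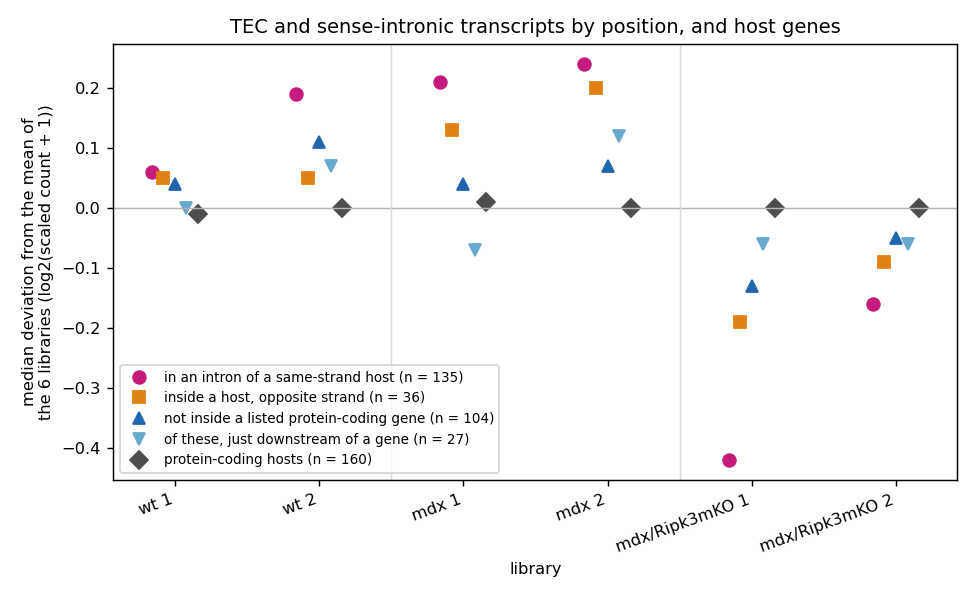
Median deviation of each set of transcripts from their own mean over 6 libraries, on the log2(scaled count + 1) scale, by library. The 135 intronic same-strand transcripts are at -0.42 and -0.16 in the mdx/Ripk3mKO libraries and above 0 in the other 4, while the 160 hosts stay within 0.01 of 0.

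Transcripts without a polyadenylation signal had a lower median than those with it, at -0.43 for 173 and -0.14 for 111 against mdx, and at -0.29 and -0.12 without mdx/Ripk3mKO library 1. The share with the signal itself varied with position. Among intronic same-strand transcripts the medians were -0.52 for 100 without and -0.35 for 35 with the signal. They were -0.24 and -0.14 on the opposite strand (13 and 23 transcripts), -0.24 and 0.03 just past the end of a gene (8 and 17), 0.07 and 0.01 in part over a gene (11 and 16), and -0.21 and -0.16 elsewhere (32 and 18). Of the 100 intronic ones without the signal, 59 were below mdx in both mdx/Ripk3mKO libraries and 2 above, beside 20.3% and 21.0% of all tested genes, and 49 were below wt and 0 above, beside 15.1% and 14.4%.

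Set against its host pair by pair, the difference was nearly that of the transcript itself. The log2 ratio to the host was lower in mdx/Ripk3mKO than in mdx in 148 of 182 pairs, with a median difference of -0.43, and in 113 of 135 intronic same-strand pairs. Against wt it was lower in 151 of 182, with a median of -0.35. Over the 182 pairs, some of which share a host, the rank correlation of the transcript's and the host's difference from mdx was 0.00. It was -0.02 for the 135 intronic same-strand pairs and -0.13 for the 36 on the opposite strand. For the 11 that touch the host's exons, AC160637.1 and Gm45867 among them, it was 0.56.

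**Figure D3:**
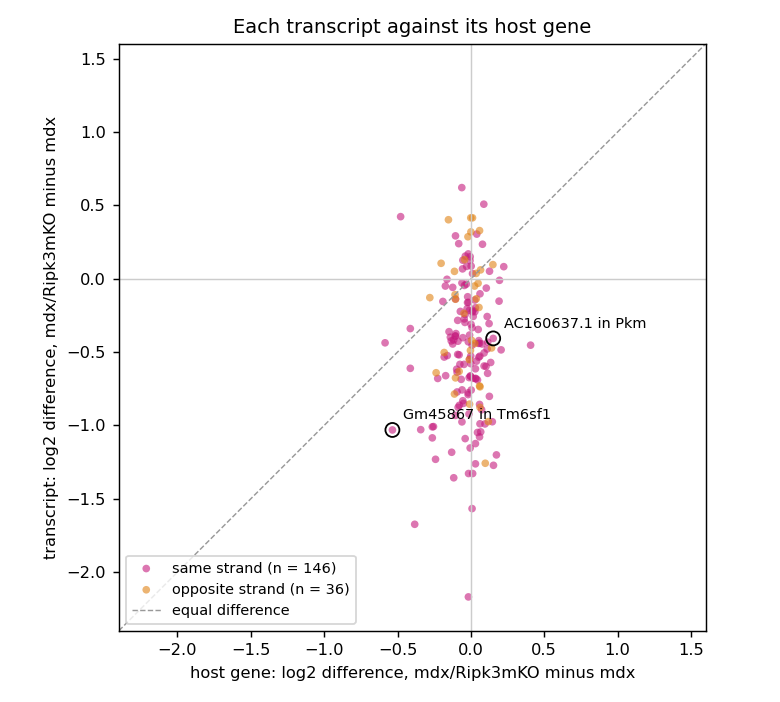
Each point is 1 of 182 transcripts; the axes give the log2 difference of mdx/Ripk3mKO from mdx for the host (horizontal) and the transcript (vertical), and the dashed line marks equal differences. The hosts gather around 0 with a median of -0.01, while 148 transcripts lie below their host; the called transcripts AC160637.1 and Gm45867 are ringed.

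AC160637.1 was the most abundant of all 286 and fell in mdx/Ripk3mKO. It is a TEC transcript of 3887 bases (mm10 chr9:59672814-59676700, plus strand) inside Pkm, the gene of muscle-type pyruvate kinase, which catalyses the last step of glycolysis. Scaled counts were 2135 and 2188 (wt), 1976 and 2132 (mdx) and 1447 and 1655 (mdx/Ripk3mKO). Both mdx/Ripk3mKO libraries were below all 4 others, and mdx library 2 was close to wt library 1. The log2 difference from mdx was -0.41 ± 0.07 (SE; limma adjusted p = 0.0291), and from wt -0.48 ± 0.07 (limma adjusted p = 0.0799). In the F-test over the 3 groups it was the 1 transcript called (limma adjusted p = 0.0408; 0.0781% of all genes were called). Without mdx/Ripk3mKO library 1 the difference from mdx was -0.31 (limma adjusted p = 0.0441).

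Pkm itself went the other way in value: 55596 and 55756 (wt), 51159 and 52623 (mdx) and 59419 and 55922 (mdx/Ripk3mKO). Both mdx/Ripk3mKO libraries were above both of mdx, and the difference of 0.15 ± 0.05 (SE) did not pass (limma adjusted p = 0.232). Per kilobase AC160637.1 was at 4.45% of Pkm, with log2 ratios of -4.34 and -4.31 (wt), -4.33 and -4.26 (mdx) and -5.00 and -4.71 (mdx/Ripk3mKO).

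The transcript spans the alternative part of Pkm. It contains both of the mutually exclusive exons that set the 2 forms of the enzyme: exon 9 of Pkm-202, used in PKM1, the form of adult muscle, and exon 9 of Pkm-201, used in PKM2, the form of dividing cells. Each has 167 bases, 372 bases separate them, and 103 positions, or 61.7%, are identical. Exons of Pkm, those of retained-intron transcripts included, make up 19.7% of the transcript. The sources used here do not say how reads in these exons were split between Pkm and AC160637.1, and a count of the transcript does not say which exon was used. Both exons are shown in capitals with 12 intronic bases on each side, since they lie inside the called transcript (mm10, plus strand, chr9:59675017-59675207 and chr9:59675556-59675746).
Pkm-202 exon 9: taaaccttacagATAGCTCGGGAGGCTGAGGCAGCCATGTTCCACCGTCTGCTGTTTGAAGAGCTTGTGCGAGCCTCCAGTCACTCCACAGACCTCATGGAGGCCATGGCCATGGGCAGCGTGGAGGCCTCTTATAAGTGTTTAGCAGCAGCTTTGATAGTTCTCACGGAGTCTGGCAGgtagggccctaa
Pkm-201 exon 9: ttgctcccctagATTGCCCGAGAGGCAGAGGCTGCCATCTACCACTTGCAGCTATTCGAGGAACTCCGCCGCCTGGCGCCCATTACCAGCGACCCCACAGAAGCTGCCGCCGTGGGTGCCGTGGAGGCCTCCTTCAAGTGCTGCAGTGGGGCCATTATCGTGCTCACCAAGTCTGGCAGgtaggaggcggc

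**Figure D4:**
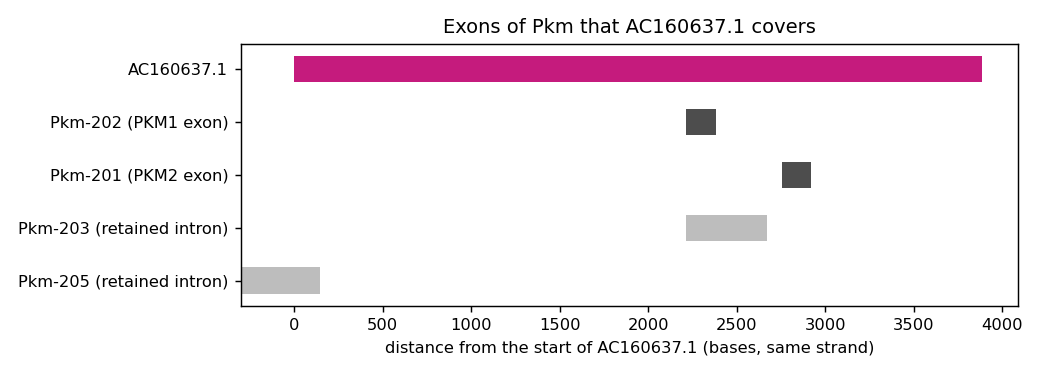
Exons of annotated Pkm transcripts that AC160637.1 overlaps, by distance in bases from its start, with coding transcripts in dark grey and retained-intron transcripts in light grey. The exons of PKM1 and PKM2 begin at 2215 and 2754 bases, and exon 8 of Pkm-205, drawn in part, covers the start.

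Gm45867 fell by the larger amount. It is a TEC transcript (mm10 chr7:81874204-81876520, plus strand) in Tm6sf1, a gene of a multi-pass membrane protein, with 9.19% of its length in the host's exons. Scaled counts were 98 and 113 (wt), 137 and 137 (mdx) and 79 and 56 (mdx/Ripk3mKO), so that the 3 groups did not overlap and mdx was highest. The log2 difference from mdx was -1.03 ± 0.18 (SE; limma adjusted p = 0.0396), and from wt -0.65 ± 0.18 (limma adjusted p = 1). Its host was at 608 and 641, 935 and 942, and 762 and 550: mdx was highest there too, and the difference from mdx of -0.54 ± 0.13 (SE) did not pass (limma adjusted p = 0.207). Without mdx/Ripk3mKO library 1 the host was called as well, at -0.77 (limma adjusted p = 0.000384), and without library 2 it was at -0.30 (limma adjusted p = 0.248). The ratio to the host was still lowest in mdx/Ripk3mKO, at -1.90 and -1.92 against -1.41 and -1.42 in mdx and -1.27 and -1.14 in wt. Without mdx/Ripk3mKO library 1 the difference from mdx was -1.28 (limma adjusted p = 0.00327), and without library 2 it was -0.79 and was not called (limma adjusted p = 0.178). Leaving out either wt or either mdx library ended both calls (limma adjusted p = 0.06 to 0.241).

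Other intronic transcripts had differences as large or larger that did not pass. A930004J17Rik, wholly in an intron of Srsf4, was at 224 and 265 (wt), 231 and 278 (mdx) and 125 and 168 (mdx/Ripk3mKO). Both of the last were below the other 4, by -0.80 ± 0.15 from mdx (SE; limma adjusted p = 0.0639) and -0.75 ± 0.15 from wt (limma adjusted p = 0.725); without mdx/Ripk3mKO library 1 these were -0.59 and -0.53. Its host was at 323 and 316, 289 and 251, and 276 and 313, with mdx/Ripk3mKO overlapping mdx.

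Gm36936, in an intron of Nedd4, was at 109 and 111 (wt), 87 and 96 (mdx) and 43 and 65 (mdx/Ripk3mKO). All 3 groups were apart, and the difference from wt was -1.04 ± 0.20 (SE; limma adjusted p = 0.486), or -0.75 without mdx/Ripk3mKO library 1. Nedd4, among the abundant hosts, was between 46538 and 47797 in all 6 libraries. The other 2 transcripts in Nedd4 were low and differed from mdx by -0.43 (Gm7265) and 0.17 (A530064N14Rik).

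Gm44769, in an intron of Reep1, a gene of a protein that shapes the endoplasmic reticulum, was at 53 and 71 (wt), 73 and 72 (mdx) and 35 and 36 (mdx/Ripk3mKO). The last group was below both others, by -1.01 ± 0.21 from mdx (SE; limma adjusted p = 0.0796), or -0.99 without mdx/Ripk3mKO library 1. Reep1 was at 1843 and 1972, 2250 and 1995, and 1862 and 1674, a difference from mdx of -0.26 ± 0.07 (SE; limma adjusted p = 0.171). The sense-intronic 4632404M16Rik in Casq2 was at 134 and 123, 164 and 146, and 104 and 98, with the 3 groups apart (-0.61 ± 0.15 from mdx, limma adjusted p = 0.11). Casq2 was at 9894 and 10032, 13840 and 13278, and 12556 and 8254, so it too was highest in mdx.

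**Figure D5:**
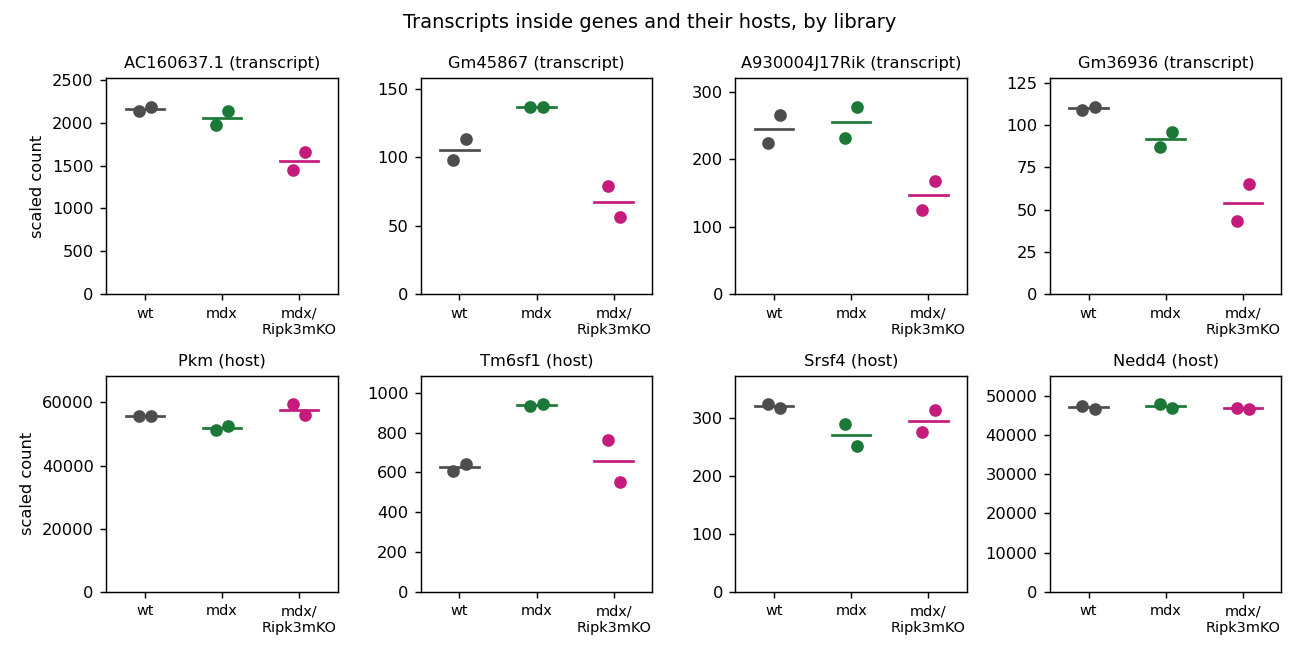
Scaled counts of AC160637.1, Gm45867, A930004J17Rik and Gm36936 (top row) and of their hosts Pkm, Tm6sf1, Srsf4 and Nedd4 (bottom row); points are libraries, bars are means of 2, and every axis starts at 0. Both mdx/Ripk3mKO points lie below the other 4 for each transcript, and this holds for none of the 4 hosts. Each of these transcripts was named for a small limma p of mdx/Ripk3mKO against mdx or wt, which favours such values. Their hosts were not chosen by p, so the rows do not compare transcripts with hosts in general.

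Where a host held 3 or more transcripts, most of them were lower than in mdx. This was so for 117 of the 135 intronic same-strand transcripts and for 7137 of the 14077 genes tested. All 3 in Picalm were lower than in mdx, at -0.44 for Gm45221, -0.86 for Gm45220 and -1.08 for Gm45222. Gm45221, the most abundant of them, was at 43 and 44 (wt), 50 and 49 (mdx) and 32 and 41 (mdx/Ripk3mKO). Gm45222 was low, at 5 and 10, 11 and 12, and 4 and 6. The 3 in Tshz3, a zinc-finger gene, differed by -1.26, -0.61 and -1.12, also at low counts. Gm38340 was at 14 and 16, 21 and 22, and 10 and 7. In the other 2, mdx/Ripk3mKO was not clear of mdx. E230020A03Rik was at 8 and 21, 14 and 19, and 7 and 15, and Gm37827 at 4 and 11, 5 and 18, and 3 and 5. In Kansl1l 5 of 6 were lower than in mdx, by between -0.93 and -0.14, and Gm38387 was at 0.29. None of these passed.

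Of the other abundant transcripts, some did not share the difference. Gm44250, the second by mean, begins 366 bases past the end of Pon3, a paraoxonase gene, and was at 397 and 407 (wt), 393 and 439 (mdx) and 412 and 373 (mdx/Ripk3mKO). Gm43682, 523 bases past the septin gene Sept11, was at 230 and 223, 245 and 233, and 232 and 221. The groups overlapped in the first, the mdx libraries were narrowly the highest in the second, and the differences from mdx were -0.08 ± 0.09 and -0.08 ± 0.11 (SE). Gm45884 begins 2903 bases past the end of Pura and was at 138 and 177, 160 and 193, and 138 and 135. Both of its mdx/Ripk3mKO values were below both mdx values (-0.36 ± 0.15 from mdx, limma adjusted p = 0.38). Gm42547, with no host, was at 219 and 217, 231 and 206, and 200 and 188 (-0.17 ± 0.12 from mdx). Gm45133, also with no host, differed from mdx by -0.05 ± 0.16. Of the 27 just past a gene, 15 were lower and 12 higher against mdx.

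Peg13, whose copy on 1 parental chromosome is silenced, was at 200 and 196 (wt), 176 and 180 (mdx) and 187 and 182 (mdx/Ripk3mKO). It differed from mdx by 0.05 ± 0.12 (SE), although it is intronic and on its host's strand, and its 95% interval ran from -0.20 to 0.30. B930095G15Rik, sense-intronic in Farp1, also ends in the signal and was at 142 and 131, 174 and 132, and 107 and 110. Its mdx/Ripk3mKO libraries were below the other 4 (-0.48 ± 0.16 from mdx, limma adjusted p = 0.257). That difference was -0.46 without mdx/Ripk3mKO library 1, -0.28 without mdx library 1 and -0.68 without mdx library 2. Gm37795, which has no host and no signal, was at 103 and 121, 93 and 103, and 65 and 75, again with the last group lowest (-0.67 ± 0.17 from wt, limma adjusted p = 1; -0.57 without mdx/Ripk3mKO library 1). Gm43980, on the opposite strand to the splicing regulator gene Tra2a, was at 196 and 236, 202 and 223, and 141 and 178 (-0.42 ± 0.14 from mdx, limma adjusted p = 0.275), or -0.25 from mdx without mdx/Ripk3mKO library 1. Gm38077, which touches an exon of Mrpl3 on its strand, was at 118 and 151, 152 and 146, and 108 and 111. It differed from mdx by -0.44 ± 0.15 (limma adjusted p = 0.289). Gm37206, on the opposite strand to Rbm4b, was at 146 and 133, 175 and 141, and 95 and 106. Its difference from mdx was -0.64 ± 0.15 (limma adjusted p = 0.113). Over the alternative settings these 2 differences ran from -0.47 to -0.38 and from -0.80 to -0.49. Rbm4b, whose exons contain Gm37206, was low in mdx/Ripk3mKO too, at 94 and 92, 72 and 81, and 58 and 72. It differed by -0.24 ± 0.19 from mdx and by -0.52 ± 0.19 from wt (SE). The log2 ratio of Gm37206 to Rbm4b differed by -0.40 from mdx and by 0.05 from wt.

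Other classes of RNA give the scale of these differences. Against mdx the median was -0.27 for TEC and -0.44 for sense-intronic transcripts, -0.22 for 336 lincRNAs, -0.21 for 271 antisense RNAs and 0.00 for 12383 protein-coding genes. For the 1716 protein-coding genes with a mean under 50, which are as low as these transcripts, it was -0.06. Against wt the medians were -0.28 and -0.33 for the first 2 classes, -0.10, -0.19 and 0.00 for the next 3, and -0.01 for low protein-coding genes. Without mdx/Ripk3mKO library 1 the medians against mdx were -0.21 for TEC, -0.29 for sense-intronic, -0.19 for lincRNAs, -0.14 for antisense RNAs, 0.01 for protein-coding genes and -0.07 for the low ones.

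RNAs listed here as retained in the nucleus were also lower against mdx as a group. Of this list, 9 of 9 had a lower value in mdx/Ripk3mKO than mdx, with a median of -0.40, and none passed. Among all 14077 genes tested 7137 were lower, and among 336 lincRNAs 245 were. At an unadjusted limma p under 0.05, 3 of the list were lower and 0 higher, where 5.87% and 5.77% of all tested genes were. Tug1 and Pvt1 were nearly level, at -0.08 ± 0.06 and -0.06 ± 0.11 (SE). Without mdx/Ripk3mKO library 1 the list's median was -0.44. Against wt the list's median was -0.14, with 8 of 9 lower. Malat1, a nuclear speckle RNA, was at 2362 and 2857 (wt), 2532 and 3019 (mdx) and 1668 and 1978 (mdx/Ripk3mKO) (-0.61 ± 0.14, SE). Neat1, the scaffold of paraspeckles, was at 1102 and 1392, 1215 and 1353, and 927 and 1089 (-0.35 ± 0.13, SE). For both, the mdx/Ripk3mKO libraries were below all 4 others. In others of the list they overlapped wt: Meg3 was at 904 and 598 against 810 and 1103, Rian at 2297 and 1426 against 1726 and 2291, and Kcnq1ot1 at 339 and 561 against 472 and 533. The part of nuclear RNA content in the result was not tested.

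Base composition differed too. The transcripts were richer in A and T than protein-coding genes, at a median of 42.9% G and C against 49.7%, and over protein-coding genes the rank correlation of G and C content with the log2 difference of mdx/Ripk3mKO from mdx was 0.32 across 12378 genes that share these libraries. Within the transcripts it was 0.13 across 284. After each library's dependence on G and C content and on length was taken out, the median of the transcripts against mdx was -0.28, that of the intronic same-strand ones -0.42, and that of the nuclear list -0.28. AC160637.1 and Gm45867 then differed by -0.40 and -0.99 and were no longer called (limma adjusted p = 0.0561 and 0.0622).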

How the data were processed

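Per the submitters' processing notes, Trimmomatic 0.36, STAR 2.6.1d, featureCounts 1.6.3 from Subread, DESeq2 1.18.1 and build mm10 were used, with no role or order given; no strand setting is given in them. The deposited values were treated as a score: read counts scaled between libraries by the authors and rounded, a reading that rests on the values, whose size factors differ by 0.00039. A count model was therefore not used. Libraries were stranded total RNA (version 2 of a low-input kit), per the labels' protocols.

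Genes with at least 10 in at least 2 of 6 libraries (14077) were fitted on log2(scaled count + 1) with limma 3.58.1 in R 4.3.3: 1 fit over all libraries, genotype as the only term, variance trend, robust fitting (statmod 1.5.0), 3 residual degrees of freedom, two-sided tests, Benjamini-Hochberg adjustment over all tested genes, threshold 0.05. The fit was tested on simulated data, with log2 changes of 2 in either direction in mdx, in genes with a mean of at least 20. These changes are far larger than the median differences here. That test therefore does not cover small differences or transcripts of lower mean. A floor of 3 counts corresponds to 2.488 to 3.448 scaled counts a library, which covers counting error only. Exon lengths, host exons and sequences came from GENCODE M21, matched by gene identifier. In it 284 of 286 transcripts and 14502 of 14515 rows were found, and 283 transcripts had the same coordinates. Agreement of the hosts' coordinates was not summarised. With several containing genes, which 4 transcripts had, 1 host was used.

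The transcripts, lists and rules were chosen with earlier results of these data known. Named were called transcripts, the 12 with the highest mean, the 4 with the smallest p in each comparison, the 4 highest and 4 lowest ratios to the host at a mean of at least 20, those at the level threshold, and their hosts; the transcripts of hosts with several, and RNAs of the nuclear list, were named in addition after their values were seen. In mitochondrially encoded RNAs (12) and ribosomal protein genes (90) the median differences of mdx/Ripk3mKO from mdx were -0.06 and 0.03. Pericyte and smooth muscle markers summed to 1770 to 2490 CPM. Pseudocount, filters, normalization, moderation, samples in the fit, single libraries, host choice, a replicate block and a correction for G and C content and length were varied.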

Additional observations from a re-analysis of the deposited data

How the results depend on the processing

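The transcripts' median differences kept their sign under every alternative for mdx/Ripk3mKO against mdx and against wt. Against mdx the median of -0.32 became -0.22 with a mean of at least 20 and -0.20 with quantile normalization. Leaving out 1 library gave -0.41 to -0.21 against mdx, -0.38 to -0.20 against wt, and -0.02 to 0.14 for mdx against wt.

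Calls depended on the fit. With no variance trend and no robust fitting, only 1 gene was called against mdx in place of 29, and with only those 2 groups 2; with either, 0 of the transcripts were. With only the 2 groups, 103 genes were called for mdx against wt in place of 1. After correction for G and C content and exon length, chosen after seeing the data, 8 genes and 0 transcripts were called against mdx. Leaving out 1 library gave 1 to 278 genes and 0 to 3 transcripts against mdx, 0 to 103 genes for mdx against wt, and 0 to 20 genes and 0 to 3 transcripts against wt. The 278 came without mdx/Ripk3mKO replicate 1. The 3 against wt, without replicate 2, were AC160637.1, A930004J17Rik and Gm36936. The F-test called 11 genes and 1 transcript; this became 1 and 0 with a mean of at least 20, 1 and 0 with no variance trend and no robust fitting, 5 genes after the correction, and 1 to 203 genes and 0 to 4 transcripts without 1 library. The cause was not tested.

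The median log2 ratio to the host of -4.41 became -4.17 with a pseudocount of 5 and -3.63 with a mean of at least 20. Its difference ran, without 1 library, from -0.52 to -0.27 against mdx and from -0.50 to -0.22 against wt. Gm45133 against mdx changed from -0.05 to 0.01 with quantile normalization and ran from -0.28 to 0.18 without 1 library, the latter without mdx/Ripk3mKO replicate 1.

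A replicate block could be fitted only for mdx/Ripk3mKO against wt, since the mdx columns carry no number. It gave 0 calls and a median of -0.26. Same-numbered libraries shared only a number: their deviations correlated at -0.0088 over 13761 genes.

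Depth limits the low transcripts: 3 reads correspond to 2.488 to 3.448 scaled counts a library, against a median transcript mean of 18.25. How many differences this hid was not tested.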
